A study of Mus musculus with 5 samples.

Results

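The nuclei described here are the stromal nuclei of mouse subcutaneous white fat (SWAT) that lie outside the Dpp4 type of progenitor. The members were chosen by their own UMI counts. A SWAT nucleus had to show 200 genes or more, no more than 10% mitochondrial counts, at least 5 unique molecular identifiers (UMIs, each standing for 1 captured RNA molecule) summed over Pdgfra, Lama2, Bicc1, Abca8a, Col6a3, Scara5 and Fbn1 with at least 3 of these 7 genes detected, at most 1 UMI over 8 genes of other lineages (Acvr1c, Flt1, Ptprb, Mrc1, Upk1b, Bank1, Skap1 and Myh11), and at most 1 UMI over Dpp4, Pi16, Sema3c, Sema3e, Cd55 and Anxa3. This chose 774 of the 12324 SWAT nuclei, out of 76040 nuclei in all 5 libraries. Within them, the 87 nuclei with at least 2 UMIs summed over Sfrp2, F3, Epha3 and Meox2 are called the Sfrp2 and F3 group, and the 687 others the remaining members. The rule reads measured values, so the levels of its own genes are given as a description.

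The study sequenced single nuclei from 5 white fat depots of 10-week-old male wild-type mice on chow diet, namely SWAT, the epididymal fat EWAT, the mesenteric fat MWAT, the fat around the kidney (NWAT) and that around the heart (HWAT). The protocol names C57BL/6J for all mice and the strain field gives C57BL/6J for SWAT and EWAT, but for HWAT that field has C57BL/9J, for MWAT C57BL/7J and for NWAT C57BL/8J. Blood was flushed out with saline that contained heparin, and SWAT and MWAT were freed of lymph nodes. Fat of 6 mice was pooled for each of SWAT, EWAT and NWAT, of 10 mice for MWAT and of 20 mice for HWAT, so that each depot is 1 pooled library with no replicate, depot and library cannot be told apart, and no test between conditions is possible.

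White fat holds a stroma of fibroblast-like cells marked by the platelet-derived growth factor receptor Pdgfra, some of which form new adipocytes. A Dpp4- and Pi16-expressing type is usually placed near the root of this lineage, preadipocytes expressing Icam1 and Pparg lie closer to the adipocyte, and a type carrying F3, the coagulation initiator tissue factor (also called CD142), has been described as restraining adipogenesis. Fgf10 is a fibroblast growth factor required for white fat development, Fst (follistatin) binds activins, Mme (neprilysin) is a membrane peptidase, Tbx15 is a T-box transcription factor that marks subcutaneous position, and Sfrp2 is a secreted Wnt modulator.

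The members held a median of 1837 UMIs and 1107.5 genes per nucleus and 1562689 UMIs in all, of which 199421 came from the Sfrp2 and F3 group and 1363268 from the remaining members; their median UMIs were 2029 and 1818. Of the members, 16 shared a cell barcode with another library and 61 were marked as likely doublets by a simulated-doublet score. A level is the sum of a gene's UMIs in a population scaled to 1000000 UMIs of that population (CPM), with exact 95% Poisson intervals; shares of nuclei have exact Clopper-Pearson 95% intervals. Both cover counting error only, not differences between mice. A gene is called higher or lower when the ratio of 2 populations is at least 2 or at most 0.5 and it has at least 20 counts over both, which is a rule of size and not a test.

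All 7 marker genes were detected in the members. Pdgfra, which the rule uses, stood at 1641 CPM (interval 1578 to 1706) and had a UMI in 84.8% of members, against 0.721% of SWAT adipocyte nuclei, 1.04% of endothelial nuclei and 1.08% of macrophage nuclei, whose median depths were 2185, 1303 and 1536.5 UMIs. The adipocyte nuclei were chosen by at least 8 UMIs over their own marker list, the endothelial and macrophage nuclei by at least 3. All were also chosen to have hardly any UMIs over the stromal genes of the rule, Pdgfra among them. The Pdgfra contrast is therefore set by the choice of nuclei. Fgf10 stood at 748 CPM (706 to 792), Tbx15 at 383 CPM (353 to 415), Fst at 282 CPM (256 to 309) and Mme at 225 CPM (202 to 250). Fgf10 had a UMI in 55.0% of members, 34.8% of adipocyte nuclei, 4.43% of endothelial nuclei and 4.97% of macrophage nuclei, the members and adipocyte nuclei standing at 42.0% and 20.4% when each nucleus was thinned to 1000 UMIs, a step that left out 67 members and 273 adipocyte nuclei. Tbx15 had a UMI in 47.7% of members, 14.8% of adipocyte nuclei and 2.03% of endothelial nuclei. F3 and Sfrp2 were carried by few members, 13.95% and 6.59%.

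Some adipocyte messages were as frequent in the members as in nuclei of other kinds. Fabp4 had a UMI in 99.9% of members and in 99.5% of macrophage nuclei. Adipoq had one in 36.8% of members, 36.7% of endothelial nuclei and 39.4% of macrophage nuclei. These shares do not by themselves show expression by the members, and the part of free adipocyte RNA in them was not tested. Pparg, the nuclear receptor that drives adipogenesis, had a UMI in 49.5% of members, 88.7% of adipocyte nuclei, 53.0% of endothelial nuclei and 27.9% of macrophage nuclei, shares that differ between kinds of nuclei. Of the 8 adipocyte markers all had counts in the members, summing to 1506 CPM against 10038 CPM in adipocyte nuclei. The 8 macrophage markers summed to 456 CPM against 11145 CPM in macrophage nuclei, the 7 endothelial markers to 127 CPM against 5336 CPM in endothelial nuclei, and the 7 Schwann or glial markers to 585 CPM. The adipocyte, macrophage and endothelial nuclei were chosen by these same lists, and the rule limits Acvr1c, Mrc1, Flt1 and Ptprb in the members. The contrasts of these lists are therefore set in part by the choice of nuclei. Of the T, NK or B cell markers Skap1, Themis, Cd3e, Ms4a1 and Pax5 were at 0, and Upk1b, Upk3b and Bnc1 of the mesothelial list were at 0. Skap1 and Upk1b are among the genes that the rule limits.

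**Figure D1:**
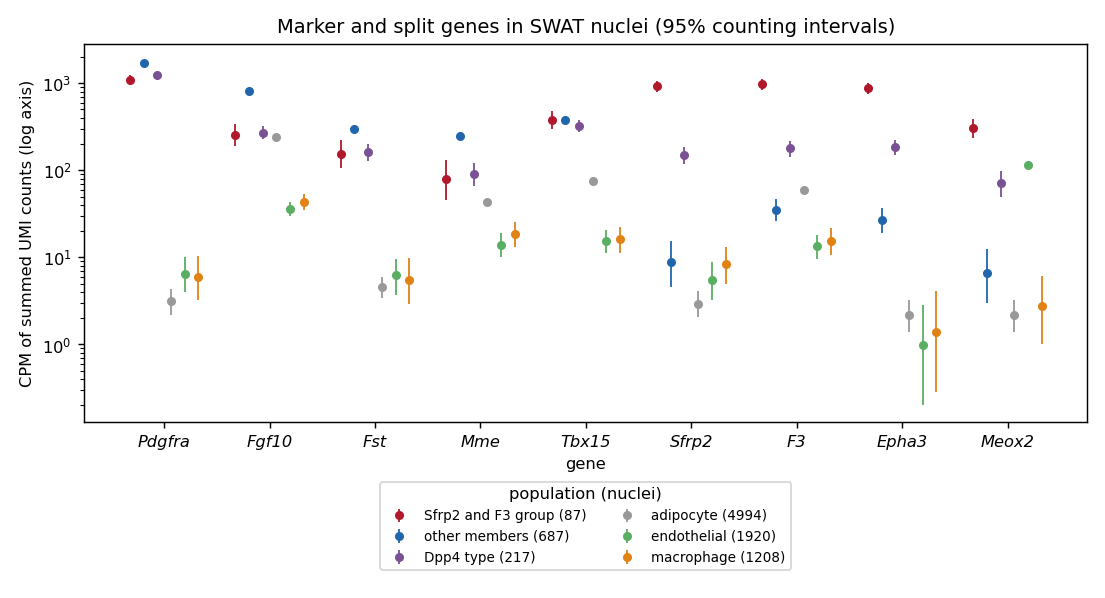
CPM of the 7 marker genes and of the split genes Epha3 and Meox2 (log axis) in 6 populations of SWAT nuclei; points are levels from summed UMI counts and bars 95% counting intervals. Pdgfra is near 1000 CPM or above in the 3 stromal populations and under 10 CPM in adipocyte, endothelial and macrophage nuclei, a contrast set by the choice of nuclei. Tbx15 lies at 326 to 383 CPM in all 3 stromal populations.

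The members were 6.29% of the SWAT nuclei that passed quality (774 of 12306, interval 5.87 to 6.73) and 78.1% of its 991 stromal nuclei, the Dpp4 type making up the other 217, or 21.9% (19.4 to 24.6). The same filters placed 49.0% of the stromal nuclei in the Dpp4 type in EWAT (469 of 957), 36.4% in MWAT (313 of 861), 52.0% in NWAT (410 of 788) and 54.8% in HWAT (184 of 336). The SWAT share was thus the lowest of the 5 libraries, with an interval that did not overlap those of the others. The Dpp4 type had more UMIs per nucleus in each library (1984 against 1837 in SWAT, 2198 against 1721.5 in HWAT), and more UMIs make it easier to reach 2 UMIs over its 6 genes; the part of depth in these shares was not tested. Nuclei outside the Dpp4 type numbered 488 in EWAT, 548 in MWAT, 378 in NWAT and 152 in HWAT.

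Nuclei on either side of each threshold are described here by their levels. The 67 nuclei with exactly 5 stromal UMIs had Fgf10 at 421 CPM and Tbx15 at 305 CPM, and the 50 nuclei with 4, just outside, had 814 and 394 CPM. The 190 members with 1 Dpp4-type UMI had Fgf10 at 599 CPM, Mme at 188 CPM and Sfrp2 at 327 CPM, and the 76 nuclei with 2, just outside, had 377, 134 and 176 CPM. Members nearest to the Dpp4 threshold thus held less Fgf10 and more Sfrp2 than the members as a whole. The 118 members with 1 UMI of another lineage had Pdgfra at 1110 CPM, and the 31 nuclei with 2 had 774 CPM.

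Clustering of the members gave 7 clusters, of 221, 203, 119, 105, 59, 45 and 22 nuclei, which are described by their genes and not tested. Clusters 1 to 3, together the bulk of the members, carried Fgf10 at 1220, 1002 and 617 CPM, Mme at 318, 313 and 234 CPM and Bmper, a secreted regulator of bone morphogenetic protein (BMP) signalling, at 1754, 1552 and 1058 CPM. Cluster 2 was led by Pappa, Angptl1 and Tuft1, and cluster 3 by the matrix metalloproteinase Mmp11, the prostaglandin-degrading enzyme Hpgd and the immediate early genes Ier2, Fosb and Fos.

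The fifth cluster, of 59 nuclei, was led by Sfrp2, L3mbtl4, Prdm6 and Plcxd3 and held 48 of the 87 nuclei of the Sfrp2 and F3 group. Mme had no count there, Fgf10 stood at 31.8 CPM, and the complement component C7 stood at 2560 CPM against 0 to 221 CPM in the other clusters. Tbx15 (437 CPM) and Pdgfra (1336 CPM) were kept in it.

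In the other 3 clusters genes of another cell type were prominent. In the fourth cluster (105 nuclei) all 8 macrophage markers were at least 2-fold higher than in the other members, summing to 1218 CPM against 326 CPM, and F13a1, H2-Ab1 and Cd74 led it. In the sixth (45 nuclei) all 8 adipocyte markers were at least 2-fold higher, 5657 CPM against 1032 CPM, with Cfd, Car3 and Adrb3 among its leading genes and a median of 3047 UMIs. In the seventh (22 nuclei) all 7 Schwann or glial markers were at least 2-fold higher, 5173 CPM against 442 CPM, Col11a1, Sfrp5, Tenm2, Cadm2 and Ntng1 led, Fgf10 was at 0 and Pdgfra at 318 CPM, so that these 22 nuclei go against the label although they pass the rule. These 3 clusters held 11 of the 87 nuclei of the Sfrp2 and F3 group. Values without them are given below wherever they move a result by over 1.5 times. This covers counts, shares, markers, split genes, Dpp4-type genes and the genes ranked highest or lowest. Ratios of the other genes on the gene lists were not recomputed without these clusters. The clusters were taken out of the SWAT members only. The Dpp4 type and the nuclei of the other depots were left whole, so that those ratios set a reduced population against unreduced ones.

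**Figure D2:**
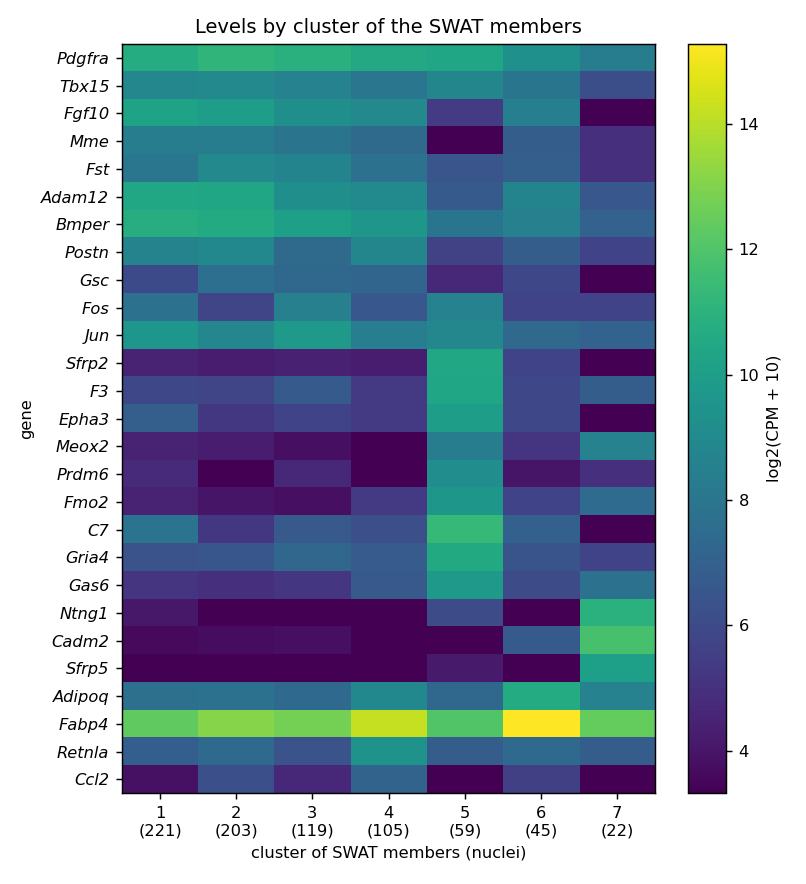
Level of 27 genes in the 7 clusters of the SWAT members, as log2(CPM + 10), with the number of nuclei under each cluster. Cluster 5 combines high Sfrp2, F3, Prdm6 and C7 with low Fgf10 and Mme, and cluster 7 alone is high in Ntng1, Cadm2 and Sfrp5.

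The Sfrp2 and F3 group made up 11.2% of the members (87 of 774, interval 9.10 to 13.7), or 8.20% when nuclei were thinned to 1000 UMIs first. The genes that set it stood far apart by construction: Sfrp2 at 928 against 8.80 CPM, F3 at 973 against 35.2 CPM, Epha3 at 878 against 27.1 CPM and Meox2 at 306 against 6.602 CPM, where the Meox2 ratio of 46.3 became 86.1 without the 3 clusters just described. When the group was set on a random draw of the UMIs of each nucleus and the levels were read in the UMIs not used, the 4 ratios were 57.4, 15.2, 12.5 and 12.2 (58 nuclei against 716). In 37 of the 87 nuclei 3 or 4 of these genes had a UMI, in 19 exactly 2, and in 31 only 1, of which 14 had Epha3 alone, 12 F3 alone and 5 Meox2 alone.

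The nuclei of this group carried little of the Fgf10 and Mme that the remaining members expressed. Fgf10 stood at 256 CPM (interval 190 to 336; 51 counts) in the group and 820.1 CPM (773 to 869.6; 1118 counts) in the remaining members, a ratio of 0.31 (0.23 to 0.41). Mme stood at 80.2 CPM against 247 CPM, a ratio of 0.33 (0.18 to 0.54). The Dpp4 type was near the group in both, with Fgf10 at 271 CPM and Mme at 90.2 CPM. The levels differed by split gene. Fgf10 stood at 80.0 CPM in the 51 members with a Sfrp2 UMI and 118 CPM in the 43 with a Meox2 UMI. It stood at 377 CPM in the 108 with F3 and 448 CPM in the 97 with Epha3. Mme ran 44.4, 45.3, 120 and 119 CPM in the same order, and these sets of nuclei overlap. Fst was at 155 CPM against 300.01 CPM, a ratio of 0.52 (0.35 to 0.75), and Pdgfra at 1093 CPM against 1721 CPM, a ratio of 0.64 (0.55 to 0.73); neither passed the 2-fold rule. Tbx15 was alike in both, 381 CPM against 383 CPM, with a ratio of 0.995 (0.77 to 1.27). Fgf10 lies at chr13:118669791-118792115 (plus strand, mm10) and Tbx15 at chr3:99240381-99354259 (plus strand).

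Over all 9142 genes with enough counts, 584 (6.39%) were called higher in the group and 982 (10.7%) lower. With 100 counts or more required, these became 121 (3.75%) and 132 (4.09%) of 3228, so most of the first counts are genes with few UMIs, whose ratios counting error alone can carry past 2. The genes named next have at least 50 counts in the higher population and were ranked by the end of their interval nearest to 1.

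Among the 14 genes that rank highest, several encode secreted or extracellular regulators. C7, a terminal complement component, stood at 1645 CPM in the group and 113 CPM in the remaining members, a ratio of 14.6 (12.0 to 17.8), and was seen in 50.6% and 9.32% of nuclei. The BMP antagonist Chrdl1 stood at 331 against 25.7 CPM, a ratio of 12.9 (8.43 to 20.0). Gas6, a ligand of the TAM receptor kinases, stood at 562 against 45.5 CPM, a ratio of 12.35 (8.98 to 17.1). Mgp, the matrix Gla protein that limits calcification, stood at 552 against 51.4 CPM, a ratio of 10.7 (7.89 to 14.7). The heparan sulfate proteoglycan Gpc3 was 9.64 times higher (6.76 to 13.8). The Dpp4 type also held C7, at 696 CPM, between the 2 sets of members. Levels in SWAT adipocyte nuclei were 2.26 CPM for C7 and 1.65 CPM for Gpc3, while Mgp stood at 762 CPM in endothelial nuclei, Gas6 at 294 CPM in macrophage nuclei and Chrdl1 at 80.5 CPM in adipocyte nuclei.

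The highest ratio belonged to Prdm6, a PR-domain transcriptional regulator at chr18:53463583-53575907, with 371 against 8.07 CPM (46.0, interval 24.3 to 96.1) and a UMI in 39.1% of the group against 1.16% of the remaining members. Fmo2, a flavin-containing monooxygenase at chr1:162874317-162898726, stood at 506 against 20.5 CPM (24.7, 16.1 to 38.9). Plcxd3, a phospholipase C-like protein, had a ratio of 27.3 (15.02 to 53.2) and Frmd5, a FERM-domain protein, one of 23.6 (13.7 to 42.3). The AMPA-type glutamate receptor subunit Gria4 stood at 943 against 96.8 CPM (9.74, 7.75 to 12.3), the GABA-A receptor subunit Gabra3 at 291 against 30.8 CPM (9.44, 6.24 to 14.4), and Pid1, a phosphotyrosine-interaction protein, at 1946 against 269 CPM (7.23, 6.25 to 8.36). Without the 3 clusters rich in markers of other cells, Prdm6, C7, Pid1 and Gria4 had ratios of 41.9, 14.5, 7.94 and 10.9, and Frmd5 and Gas6 moved up, to 59.3 and 19.1.

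For Ntng1 (netrin G1) the ratio was 11.2 (7.42 to 17.2), 321 against 28.6 CPM, and 93 of its 103 counts in the members lay in the 22 nuclei of cluster 7. Without the 3 clusters rich in markers of other cells the ratio was 13.4, from the 10 counts that were left. With the group set on a random draw of the UMIs its ratio was 2.97, with at least 8 stromal UMIs required it was 3.91, and with 3 split-gene UMIs as the minimum it was 4.21.

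**Figure D3:**
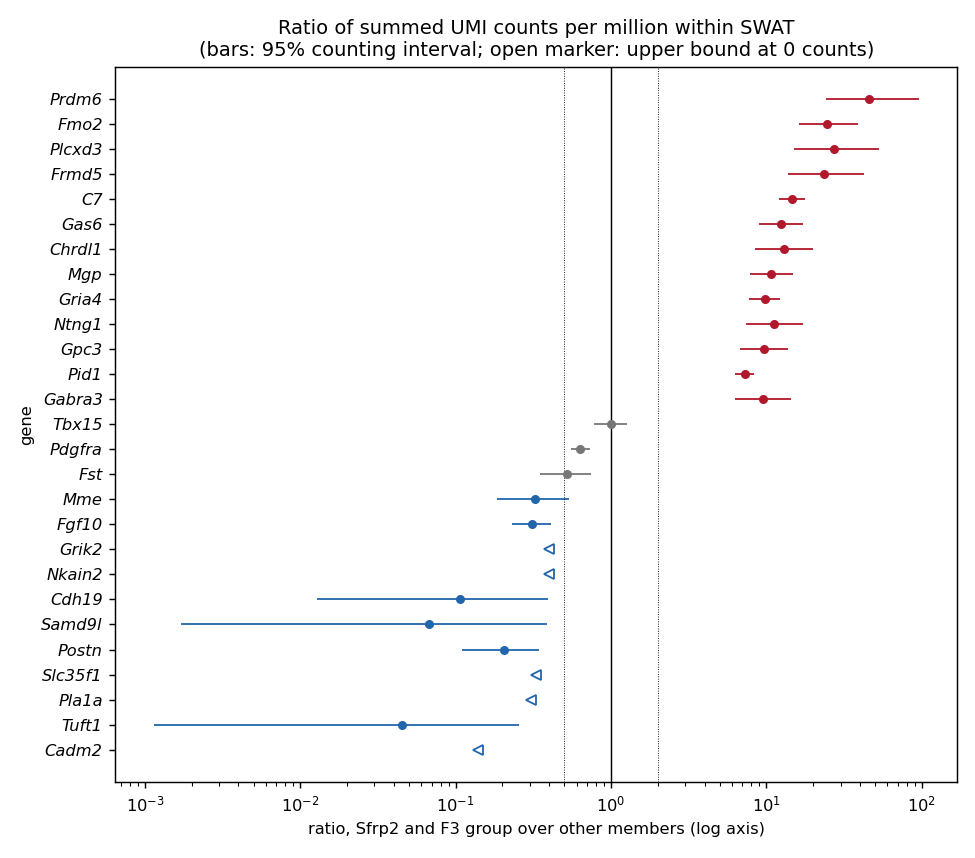
Ratio of CPM in the Sfrp2 and F3 group over the remaining members (log axis) for 13 of the highest and the 10 lowest genes and 4 markers; bars are 95% counting intervals, open markers upper bounds for genes with 0 counts in the group, and dotted lines 0.5 and 2. The higher genes run from 7.23 to 46.0, and Tbx15 sits at 0.995.

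The 10 genes that rank lowest are Fgf10, given above, and 9 others. Postn, the matricellular protein periostin, stood at 70.2 against 345 CPM, a ratio of 0.20 (0.11 to 0.34). Tuft1 had 1 count against 151, a ratio of 0.045 (0.0011 to 0.26), and Samd9l, an interferon-inducible gene, 1 count against 101, a ratio of 0.068 (0.0017 to 0.39). Pla1a, a phospholipase, had 0 counts against 84, at least 4.10-fold lower when set against a floor of 3 counts over the group. Cadm2 (0 against 183 counts, at least 8.92-fold lower), Slc35f1 (0 against 78, at least 3.80-fold), Nkain2 and Grik2 (0 against 65 each, at least 3.17-fold) and Cdh19 (2 against 128 counts, ratio 0.11, 0.013 to 0.39) complete the list. Of these, 165 of the 183 Cadm2 counts, 72 of the Slc35f1 counts, 58 of the Nkain2 counts and 57 of the Grik2 counts lay in the 22 nuclei of cluster 7, and the ratio of Cdh19 was 0.29 without the 3 clusters rich in markers of other cells. With at least 1 split-gene UMI in place of 2, Cadm2, Slc35f1, Cdh19 and Grik2 turned to ratios of 2.01, 1.84, 1.40 and 1.26.

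For Fgf10, Mme, C7, Prdm6 and Gria4 the largest steps lay between 2 and 3 split-gene UMIs, not at the 2 used by the rule. Fgf10 stood at 856 CPM in the 581 members with no split-gene UMI, 645 CPM in the 106 with 1, 745 CPM (interval 522 to 1031) in the 23 with 2 and 99.3 CPM (55.6 to 164) in the 64 with 3 or more. Mme ran 262, 170, 228 and 33.1 CPM. C7 ran 86.4, 244, 331 and 2065 CPM, Prdm6 6.17, 17.4, 20.7 and 483 CPM, and Gria4 85.6, 153, 41.4 and 1231 CPM. For these genes the 23 nuclei with 2 split-gene UMIs were therefore closer to the remaining members than to the 64 nuclei above them. Postn ran 371, 218, 103 and 59.6 CPM and Fst 328, 161, 186 and 146 CPM, with their largest steps at lower UMI numbers. Tbx15 stayed between 331 and 397 CPM throughout. Median UMIs per nucleus in the 4 steps were 1795, 2008, 1882 and 2132. With 3 UMIs as the minimum, the Fgf10 ratio became 0.12 and the Mme ratio 0.13.

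**Figure D4:**
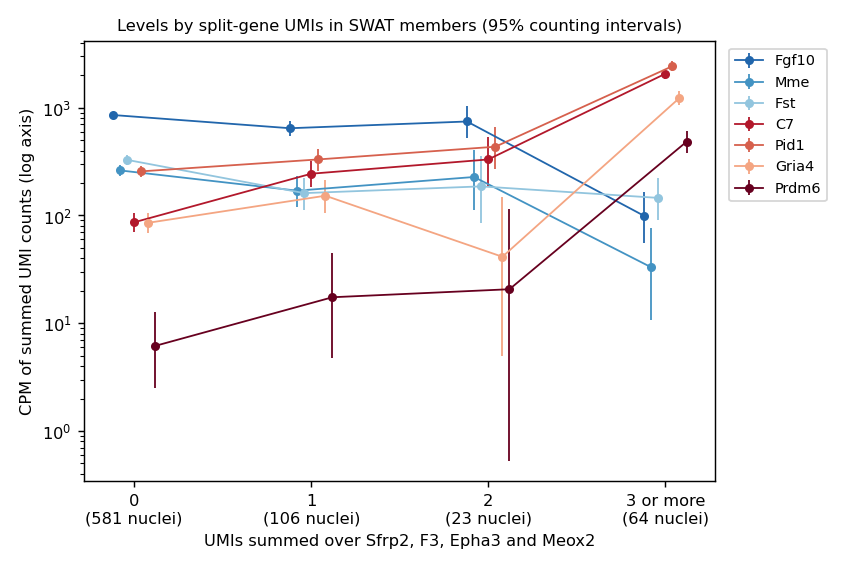
CPM of 7 genes (log axis) against the number of UMIs over Sfrp2, F3, Epha3 and Meox2 in the SWAT members; bars are 95% counting intervals. Fgf10 and Mme are at 745 and 228 CPM in nuclei with 2 such UMIs and at 99.3 and 33.1 CPM with 3 or more, while C7, Pid1, Gria4 and Prdm6 step up at the same place.

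Reference sequences are shown for genes at the ends of this contrast: C7, a complement gene higher in the Sfrp2 and F3 group, and Fgf10, which the remaining members carry. They are shown as the RefSeq promoters on GRCm38.p6 (250 bases before to 50 after the RefSeq start, 5′ to 3′ on the gene's strand); capitals mark the match to TATAAA on either strand in C7 and to GGGCGG on either strand in Fgf10.
C7, chr15:5063724-5064023, minus strand: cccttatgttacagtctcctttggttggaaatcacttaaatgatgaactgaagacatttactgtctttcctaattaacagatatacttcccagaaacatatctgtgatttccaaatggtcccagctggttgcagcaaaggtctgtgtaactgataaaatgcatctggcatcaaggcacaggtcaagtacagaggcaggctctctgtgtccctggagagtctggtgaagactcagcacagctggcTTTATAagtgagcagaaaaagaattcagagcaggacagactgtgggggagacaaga
Fgf10, chr13:118714449-118714748, plus strand: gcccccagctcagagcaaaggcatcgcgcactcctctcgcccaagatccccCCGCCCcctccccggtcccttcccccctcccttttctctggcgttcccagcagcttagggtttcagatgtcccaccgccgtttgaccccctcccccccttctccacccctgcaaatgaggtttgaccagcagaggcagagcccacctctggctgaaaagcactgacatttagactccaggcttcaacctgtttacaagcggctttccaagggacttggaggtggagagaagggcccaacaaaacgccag
C7 carried 1 TATAAA match and no GGGCGG match, and Fgf10 the reverse. The 300 bases of Fgf10 lie inside the gene's GENCODE span, since the RefSeq start is downstream of the GENCODE start. Of all 32817 promoters of this length, 13.6% held TATAAA and 35.6% GGGCGG on either strand. Of the 14 higher genes 10 had a promoter in the table, and TATAAA was in 2 and GGGCGG in 5; of the 10 lower genes 7 had one, with matches in 1 and 4. The AP-1 motif TGANTCA and the T-box motif AGGTGT, in 7.81% and 13.7% of all promoters, were found in 0 of these 17. None of the 4 motifs contains another, and a match is a description of the sequence only.

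The gene list for F3-positive (CD142) regulatory cells holds F3 and Meox2, which set the group and are left out of its count. Of the 8 other genes, 6 had enough counts and 6 were called higher, where 6.39% of all genes tested were, with a median log2 ratio of 3.27 against 0.01 over all genes tested. They were Fmo2, Clec11a (11.04), Mgp, Gdf10 (8.71), Vit (7.98) and Cpe (2.14, interval 0.94 to 4.45), and Abcg1 and Rspo2 had under 20 counts. The list was drawn up with earlier results on these nuclei known. Of 21 committed preadipocyte genes 20 were tested, 0 were called higher and 4 lower, where 10.7% of all genes tested were lower: Icam1 (0.27, interval 0.05 to 0.81), the lipid-droplet coat protein Plin2 (0.37), Fabp4 (0.48) and Pparg (0.498). The list's median was -0.46. The share of nuclei with Fabp4 does not by itself show expression by the members, as given above. The 8 adipocyte markers summed to 1163 CPM in the group and 1557 CPM in the remaining members; the part of free adipocyte RNA in these 4 ratios was not tested.

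Signalling lists moved by single members. Over all genes tested 6.39% were called higher and 10.7% lower, and the counts of these short lists stand beside those shares. Among FGF genes Fgf7, a ligand of the same receptor as Fgf10, was higher (426 against 173 CPM, 2.46, 1.90 to 3.17) as Fgf10 was lower, and the receptors Fgfr1 (0.999) and Fgfr2 (1.24) were not called. Among the BMP and activin antagonists Bmper stood at 627 against 1220 CPM (0.51, 0.42 to 0.62). Of 6 ligands tested, Gdf10 (396 against 45.5 CPM) and Tgfb3 (2.52, 0.89 to 6.26) were higher. Of 10 BMP and activin receptors tested, 0 were called either way, a list too short to be set apart from the shares over all genes. Of 4 secreted Wnt inhibitors tested, Sfrp2, by construction, Sfrp4 (16.0) and Sfrp5 (12.9) were higher and Dkk2 (0.37, 0.10 to 1.001) lower, but 51 of the 52 Sfrp5 counts in the members lay in cluster 7. Both Wnt ligands tested, Wnt6 (4.42) and Wnt5a (2.28), and the receptor Fzd2 (70.2 against 6.602 CPM, 10.6) were higher, and the co-receptor Lrp5 (0.35) lower. Wnt6 had 26 counts in cluster 7 and 2 in all other members.

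The counts of matrix genes that follow stand beside 6.39% of all genes tested called higher and 10.7% called lower. Of 19 collagens tested 4 were higher and 3 lower, the latter near that share: the fibrillar chains Col1a1 (7060 against 1766 CPM, 3.999, 3.74 to 4.27) and Col1a2 (4328 against 1759 CPM, 2.46), with Col14a1 (10.3) and Col16a1 (2.82), against Col5a3 (0.42), Col27a1 (0.24) and Col11a1 (0.20, with its interval reaching 1.20). Col3a1 (1.27) was not called. All 35 Col11a1 counts in the members lay in cluster 7. Of 18 basement membrane and elastic fibre genes, Fbln1 (5.70), Ltbp4 (4.14), Lamb2 (3.23) and Eln (2.01) were higher and Efemp1 (0.36), Lamb1 (0.41), Loxl2 (0.41) and Loxl1 (0.48) lower. Of 34 peptidases and inhibitors 9 were higher, led by Tll1 (7.18), Adamtsl3 (5.27), Timp1 (5.08) and Adamtsl4 (3.42), and 3 lower, again near the share of all genes, namely Mme, Pappa (0.36) and the metalloprotease Adam12 (361 against 959 CPM, 0.38). Of 24 growth factors and cytokines, Vegfc (7.49), Cxcl12 (507 against 117 CPM, 4.34), Kitl (2.76) and Igf1 (2.001) were higher, and Ccl2 (0 counts against 62, at least 3.02-fold lower), Angptl1 (0.11), Ccl7 (0.13) and Ccl11 (311 against 668 CPM, 0.47) lower.

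Of 18 positional transcription factors tested 6 were higher, where 6.39% of all genes tested were: Meox2, by construction, Osr1 (311 against 62.4 CPM, 4.99), Nr2f2 (386 against 91.0 CPM, 4.24), Prrx2 (4.10), Prrx1 (918 against 378 CPM, 2.42) and Gata6 (2.23). On the same list 3 were lower, where 10.7% of all genes tested were. Twist1 had a ratio of 0.34 and Osr2 one of 0.22, the latter with an interval that includes 1. The complement component C2 had a ratio of 3.66. Of 17 immediate early genes 6 were higher and 0 lower, beside 6.39% and 10.7% of all genes tested, with Nr4a1 (11.4), Ier3 (5.01), Btg2 (4.88) and Socs3 (2.38) farthest from 1. The 22 genes of that list summed to 3550 CPM in the group, 2380 CPM in the remaining members and 3037 CPM in the Dpp4 type. The part of this activity in the other differences was not tested.

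The same split was made in the other depots. The group was 12.1% of the stromal nuclei outside the Dpp4 type in EWAT (59 of 488), 18.6% in MWAT (102 of 548), 13.5% in NWAT (51 of 378) and 8.55% in HWAT (13 of 152), against 11.2% in SWAT; the interval of MWAT, 15.4 to 22.1%, lay above that of SWAT. After thinning to 1000 UMIs the shares were 8.20% in SWAT, 5.07% in EWAT, 13.01% in MWAT, 5.03% in NWAT and 3.03% in HWAT, those of EWAT, NWAT and HWAT falling by more than 2 times. The thinned intervals of MWAT (9.75 to 16.9%, 369 nuclei left) and SWAT (6.29 to 10.5%, 707 nuclei left) overlapped. Nuclei with 3 or 4 of the split genes numbered 0 of 59 in EWAT, 9 of 102 in MWAT, 6 of 51 in NWAT and 1 of 13 in HWAT, against 37 of 87 in SWAT. In EWAT 42 of the 59 had F3 alone and in NWAT 34 of the 51, and in MWAT 38 of the 102 had Epha3 alone. Sfrp2 had a UMI in 39 of the 87 SWAT nuclei, 7 of the 59 in EWAT, 1 of the 102 in MWAT and 2 of the 51 in NWAT.

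Genes called higher in these splits were 3.34% of those tested in EWAT, 3.51% in MWAT, 3.34% in NWAT and 11.1% in HWAT, and genes called lower 9.07%, 8.3%, 9.35% and 22.0%. In NWAT Mgp stood at 604 against 33.9 CPM (17.8, 11.5 to 28.7), Gria4 at 271 against 16.9 CPM (16.0), Chrdl1 at 12.4 times, Fmo2 at 8.38 times and C7 at 271 against 88.6 CPM (3.06, 2.04 to 4.54). In MWAT Gria4 (6.06), Plcxd3 (3.27), C7 (2.67), Fmo2 (2.64) and Prdm6 (2.42) were higher, and in EWAT Gria4 (4.605) was, while C7 (1.09), Fmo2 (1.26), Mgp (1.37) and Gas6 (0.87) were not called. C7 in EWAT stood at 1019 CPM in the group and 939 CPM in the rest, so that the sets differed little there. The ratio of Fgf10 was 0.54 (0.35 to 0.80) in NWAT, 0.67 (0.40 to 1.05) in EWAT, 1.14 (0.41 to 2.75) in MWAT and 1.98 (0.81 to 4.25) in HWAT, and it did not pass the 2-fold rule in these depots. In the 13 HWAT nuclei Fmo2 had 13 counts against 48 (3.02, 1.502 to 5.67), Gas6 7 against 24 (3.25, 1.18 to 7.79) and Pid1 28 against 132 (2.37, 1.52 to 3.58), while C7 (1.49, 0.79 to 2.61) was not called.

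Against the Dpp4 type of the same library, the members held more Adam12, Fgf10, Mme and Col15a1 and less fibronectin. Of 9992 genes tested 635 (6.36%) were higher and 385 (3.85%) lower, or 106 (2.53%) and 92 (2.2%) of 4191 with at least 100 counts. Adam12 stood at 883 against 196 CPM (4.50, interval 3.67 to 5.57). Fgf10 stood at 748 against 271 CPM (2.76, 2.32 to 3.32), Mme at 225 against 90.2 CPM (2.497, 1.83 to 3.47) and Fst at 282 against 161 CPM (1.75, 1.38 to 2.24). The Fst ratio was 2.06 without the 3 clusters rich in markers of other cells, which passes the 2-fold rule. Tbx15 (1.18, 0.99 to 1.41), Sfrp2 (0.85) and F3 (0.87) differed little, so that Sfrp2 and F3 were about as abundant in the Dpp4 type as in the members. The genes of the rule differed by construction, Dpp4 at 8.32 against 433 CPM and Pi16 at 5.12 against 294 CPM.

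The other genes that rank highest include the sodium-calcium exchanger Slc24a3 (696 against 198 CPM, 3.51), the phosphodiesterase Pde11a (533 against 155 CPM, 3.44), Bmper (1144 against 416 CPM, 2.75), autotaxin (Enpp2, 475 against 169 CPM, 2.82) and the basement-membrane-zone collagen Col15a1 (316 against 92.2 CPM, 3.43). Mmp28 (8.92, 2.95 to 44.2), Kalrn (5.96), Prtg (5.26) and Epb41l1 (4.86) were at 46.7 to 95.4 CPM in the members. The monocyte chemoattractant Ccl2 had 62 counts against 1, a ratio of 20.2 (3.4998 to 812) or 12.2 without the 3 clusters rich in markers of other cells, and its highest level, 128 CPM, was in cluster 4, where macrophage markers are highest. Cdh19 was 6.06 times higher, and 2.71 times without the 3 clusters rich in markers of other cells.

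Lower in the members than in the Dpp4 type were fibronectin (Fn1, 102 against 720 CPM, 0.14, 0.12 to 0.17), Tmem100 (28.2 against 294 CPM, 0.096), the sphingomyelinase Smpd3 (0.095), endothelin 1 (Edn1, 0.12), Limch1 (0.11, and 0.074 without those 3 clusters), the adhesion protein Opcml (129 against 714 CPM, 0.18) and the hexosamine-pathway enzyme Gfpt2 (73.0 against 374 CPM, 0.19). The haemoglobin genes Hba-a1 (0.14), Hba-a2 (0.15) and Hbb-bs (340 against 1641 CPM, 0.21) are also on this list; Hbb-bs stood at 1027 CPM in endothelial and 430 CPM in macrophage nuclei, and its ratio was 0.51 as a mean over nuclei, so that nuclei with many UMIs weigh in the summed value. The list counts that follow stand beside 6.36% of all genes tested called higher and 3.85% called lower. Of 20 collagens tested 6 were higher and 2 lower, with Col15a1, Col4a3 (2.49), Col11a1 (2.28) and Col27a1 (2.21) farthest up and Col14a1 (0.18) and Col6a6 (0.35) down. All 35 Col11a1 counts in the members lay in cluster 7, where Schwann or glial markers are highest. Of 20 committed preadipocyte genes 3 were higher, Col15a1, Plin2 (2.20) and Col4a1 (2.02), and Cebpd (0.43) was lower, with a median of 0.23 against 0.04 over all genes; Pparg stood at 1.55. Of 5 Wnt ligands tested 3 were lower (Wnt2 0.37, and Wnt11 0.44 and Wnt9a 0.47 with intervals that include 1), as were Igfbp6 (0.45) and Igfbp4 (0.47) among 4 IGF binding proteins.

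Compared with the nuclei chosen in the same way from the other 4 depots, the SWAT members held more of several transcription factors of position. A gene is called here when it is at least 2-fold above the highest, or at most 0.5 of the lowest, of the other depots; 94 of 12152 genes (0.774%) were above and 218 (1.79%) below, or 32 (0.433%) and 81 (1.1%) of 7382 with at least 100 counts. Against EWAT alone 579 of 10603 genes (5.46%) were higher and 671 (6.33%) lower, and against NWAT alone 714 of 10557 (6.76%) and 552 (5.23%). Tbx15 stood at 383 CPM in SWAT, 60.4 CPM (45.7 to 78.5) in NWAT, 10.4 CPM in HWAT, 6.22 CPM in EWAT and 5.57 CPM in MWAT, a ratio of 6.33 (4.81 to 8.48) to NWAT. The limb homeobox gene Shox2 (chr3:66971727-66981771) stood at 33.3 CPM (24.9 to 43.6) in SWAT, 1.08 CPM in NWAT, 1.04 CPM in EWAT and 0 in MWAT and HWAT. The homeobox gene goosecoid (Gsc, chr12:104471209-104473330) stood at 106 CPM against 14.5 CPM in EWAT and 4.18 to 10.4 CPM elsewhere, a ratio of 7.32 (4.24 to 13.7). Prdm16, known as a regulator of thermogenic fat, stood at 48.0 CPM against 3.46 to 7.26 CPM, a ratio of 6.61 (3.06 to 17.0).

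Of 23 positional transcription factors tested 5 were above every other depot, Tbx15 and Shox2 with Emx2 (21.8 CPM, 4.20 times EWAT), Msx1 (25.6 CPM, 3.53) and Twist1 (67.8 CPM, 2.52), and 2 were below. Over all genes tested 0.774% were above and 1.79% below. The visceral and mesothelial factor Wt1 had 0 counts in SWAT and 52.9 to 315 CPM elsewhere, at least 27.6-fold lower than in NWAT at a floor of 3 counts over the members. Tcf21 had 1 count in SWAT (0.640 CPM) and stood at 149 CPM in MWAT, 65.3 CPM in EWAT, 6.91 CPM in HWAT and 3.24 CPM in NWAT. Of 18 Hox genes tested 0 were above or below every other depot. Against NWAT alone 5 of 16 with enough counts were higher and 2 lower, and against EWAT alone 4 of 17 and 3. Over all genes tested the shares higher and lower were 6.76% and 5.23% against NWAT and 5.46% and 6.33% against EWAT. Hoxa9 stood at 85.1 CPM in SWAT and 91.7 CPM in NWAT but 4.15 CPM in EWAT and 0 in MWAT and HWAT, Hoxa10 at 32.6 and 28.1 CPM with 0 in the other 3, and Hoxc10 at 41.0 and 23.7 CPM with 1.04 CPM in EWAT and 0 in the others. The mesothelial marker list summed to 15.4 CPM in the SWAT members, 55.0 CPM in NWAT, 104 CPM in EWAT, 333 CPM in MWAT and 522 CPM in HWAT, a gradient that Wt1 follows; its part in the Wt1 levels was not tested.

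Fgf10 (748 CPM) was highest in SWAT, followed by NWAT (300, interval 266 to 337), EWAT (218, 189 to 249), HWAT (183, 137 to 240) and MWAT (41.8, 28.2 to 59.7); EWAT and HWAT overlap. Fst ran 282 CPM in SWAT, 112 in NWAT, 70.5 in EWAT, 39.0 in MWAT and 13.8 in HWAT, with SWAT 2.51 times NWAT (2.02 to 3.14). Mme ran 225 CPM in SWAT and 155 CPM in NWAT (a ratio of 1.45, 1.19 to 1.77) and 11.1 to 31.1 CPM elsewhere. Pdgfra was highest in MWAT (2187 CPM) with SWAT next (1641 CPM), F3 ranged from 89.9 CPM in HWAT to 267 CPM in MWAT with SWAT at 155 CPM, and Sfrp2 stood at 126 CPM in SWAT against 31.1 CPM in EWAT (4.05, 2.75 to 6.17) and 2.79 to 24.2 CPM elsewhere. In summed counts, fewer expressing nuclei and less RNA in each cannot be told apart. By nuclei, Fgf10 had a UMI in 42.0% of the SWAT members, 23.5% in NWAT, 15.2% in EWAT, 13.6% in HWAT and 4.07% in MWAT after thinning to 1000 UMIs.

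The remaining genes above every other depot include the matrix metalloproteinase Mmp3 (369 CPM, 2.80 times NWAT), the Notch target Hes1 (290 CPM, 2.61 times EWAT), Btg1 (370 CPM, 2.66), Cpne2 (122 CPM, 2.95) and the chemokine Ccl8 (109 CPM, 5.87). The immediate early genes Jun (552 CPM against 41.0 to 111 CPM, 4.99, 3.51 to 7.35) and Fosb (86.4 CPM against 1.39 to 10.4 CPM) were also above, 2 of 20 of their list, where 0.774% of all genes tested were above. The whole list summed to 2529 CPM in SWAT against 541 to 1638 CPM in the other depots. Within SWAT the same list summed to 885 CPM in adipocyte nuclei, 1523 CPM in macrophage nuclei and 2168 CPM in endothelial nuclei. Hes1 was 1.88 times EWAT with at least 8 stromal UMIs required.

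Below every other depot were prostacyclin synthase (Ptgis, 10.9 CPM against 57.2 to 432 CPM, 0.19 of NWAT), the aldehyde oxidase Aox3 (29.4 against 125 to 377 CPM, 0.24), Greb1l (0.25), Tmtc2 (37.1 against 131 to 329 CPM, 0.28, and 0.18 without the 3 clusters), Rtn1 (0.29), the nucleoside transporter Slc29a1 (0.31), proenkephalin (Penk, 33.3 against 107 to 460 CPM, 0.31), Zbtb7c (0.34), complement C3 (243 against 674 to 1241 CPM, 0.36, 0.32 to 0.41) and the transcription factor Trps1 (66.5 against 178 to 515 CPM, 0.37, and 0.73 with at least 8 stromal UMIs). For the 10 genes the SWAT value lay outside the intervals of all 4 other depots. Fn1 (102 against 214 to 453 CPM), Col14a1 (32.0 against 68.0 to 479 CPM), Ltbp4 (33.9 against 82.0 to 270 CPM) and Bmp4 (12.2 against 28.1 to 82.2 CPM) were also below. The SWAT members and the other depots also differ in the share of the Dpp4 type next to them and in depth, with median member UMIs of 1195.5 to 2309.5 in the other depots, and the part of these in the ratios was not tested.

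**Figure D5:**
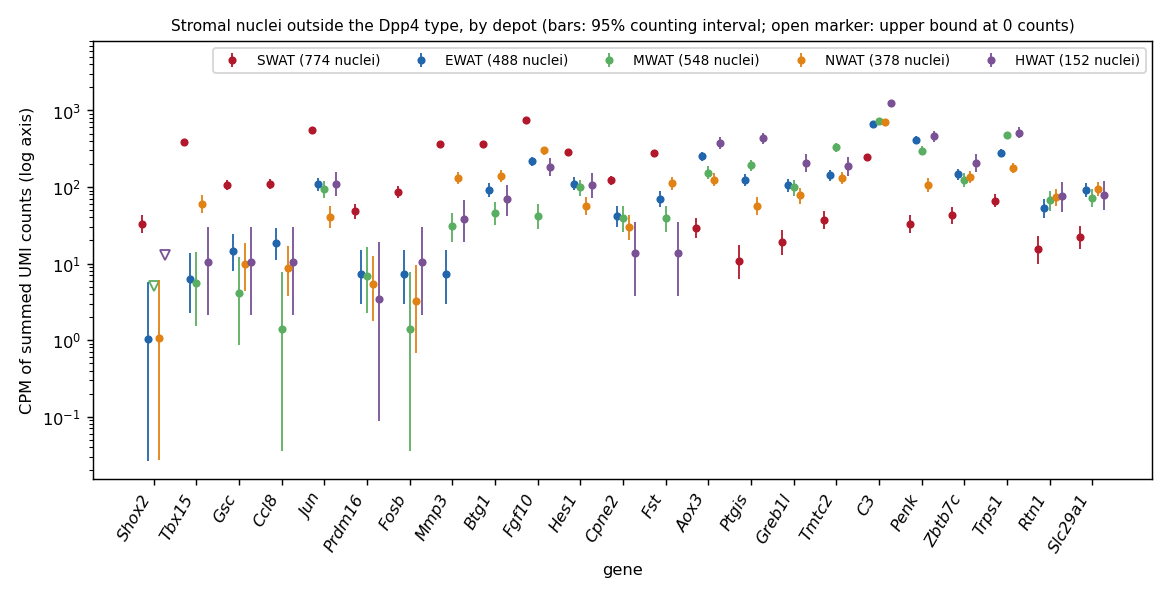
CPM (log axis) of 13 of the genes ranked furthest above and the 10 furthest below every other depot, in stromal nuclei outside the Dpp4 type of each depot; bars are 95% counting intervals and open markers upper bounds at 0 counts. SWAT is the highest point for the first 13 genes, with Tbx15 at 383 CPM, and the lowest for the last 10, with Ptgis at 10.9 CPM.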

How the data were processed

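The deposited files hold UMI counts per gene and nucleus, which the authors made, per the file headers, in Cell Ranger 6.0.1; the submitters' processing notes name mm10 and Seurat. Ambient RNA had no correction here. Nuclei were filtered and chosen by the rule given in the report, and raw counts were summed per population (Python 3.11.15, numpy 2.4.6, scipy 1.17.1, pandas 2.3.3). With 1 library per depot there is no test, no p-value and no check between mice. Named genes were the 7 markers, the rule genes, the 14 highest and 10 lowest ratios by the interval bound nearest 1 among genes with at least 50 counts in the higher population, and up to 4 members per list and direction. Some genes that this rule names are not reported here. The members and gene lists were chosen with earlier results of these data known. Clusters used leidenalg 0.10.2 at resolution 0.5. Likely doublets were scored by simulation and kept. Scaling by TMM (edgeR 4.0.16) was an alternative. Gene positions are GENCODE vM21 on mm10 (692 of 692 genes matched by identifier), and promoters are from RefSeq on GRCm38.p6. Libraries held 23313545 to 43855063 UMIs. Scripts were tested on simulated data.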

Additional observations from a re-analysis of the deposited data

How the results depend on the processing

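Of the counts and shares recomputed under alternative settings, 80 stayed close to the reported value and 24 moved; of the ratios of named genes 1011 stayed close, 95 moved and 4 changed direction, and of the list medians 994, 25 and 4. The share of SWAT nuclei chosen was 4.599% with 8 stromal UMIs, 5.33% with 0 other-lineage UMIs, 4.75% with 0 Dpp4-type UMIs and 4.89% without the clusters led by nerve, adipocyte or macrophage genes, an alternative added after the data were seen. The Sfrp2 and F3 group was 24.9% of members with 1 split-gene UMI, 8.27% with 3 and 8.20% after thinning. Genes higher and lower in the group numbered 344 and 408 with 1 split-gene UMI, 2213 and 5465 with no minimum of counts, and 121 and 132 with 100 counts. Against the Dpp4 type they numbered 4009 and 2210 with no minimum and 106 and 92 with 100 counts. Against the other depots they numbered 1076 and 351 with no minimum and 32 and 81 with 100 counts. With EWAT and NWAT as the only other depots, 222 were higher. Without the 3 clusters, which were taken out of the SWAT members only, 336 were lower than in every other depot. At resolution 1 there were 12 clusters in place of 7. With 1 split-gene UMI the ratios of Cadm2, Slc35f1, Cdh19 and Grik2 turned to 2.01, 1.84, 1.40 and 1.26. The median log2 ratio of the IGF binding proteins turned to 0.0196 against the Dpp4 type with no minimum, and against the other depots to 0.35 with 100 counts and 0.16 against EWAT and NWAT only; that of the fibro-inflammatory progenitor genes turned to -0.0305 against the Dpp4 type with no minimum. The cause was not tested. TMM scaling shifted the log2 ratios of SWAT over another depot by 0.09 to 0.13, those of the split by -0.07 and those over the Dpp4 type by -0.01. No paired analysis was possible because each depot is 1 library and no result comes from a test. Genes with few counts are limited by depth: a group of 199421 UMIs gives wide intervals below about 50 counts.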

Other observations

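Between the Sfrp2 and F3 group and the remaining members of SWAT, 4 of 20 axon guidance genes tested were higher and 4 lower, with a median log2 ratio of -0.05, where 6.39% and 10.7% of all genes tested were. Sema3d, a secreted semaphorin, stood at 105 against 2.20 CPM (a ratio of 47.9, interval 14.3 to 251, from 21 counts in the group), Ephb2 at 50.1 against 8.80 CPM (5.70) and Ntn1 at 135 against 44.0 CPM (3.08), while another secreted semaphorin, Sema3a, stood at 65.2 against 237 CPM (0.28, 0.14 to 0.48) and Slit2 at 25.1 against 95.4 CPM (0.26). Of 24 adhesion genes 7 were higher and 5 lower, with a median log2 ratio of -0.11; among the higher were Itgbl1 at 782 against 150 CPM (5.23), Opcml at 416 against 87.3 CPM (4.77) and Cdh13 at 336 against 98.3 CPM (3.42). Opcml was also among the genes lower in the members than in the Dpp4 type.

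Among 21 hormone and growth factor receptors the growth hormone receptor Ghr stood at 2287 against 1105 CPM (2.07, 1.86 to 2.30) and Il6st, the shared receptor chain of the interleukin 6 family, at 416 against 150 CPM (2.78). The potassium channel Kcnt2 stood at 321 against 67.5 CPM (4.76, 3.40 to 6.61). Against the other depots, 6 of 20 potassium and calcium channel genes tested were below every other depot and 0 above, where 1.79% and 0.774% of all genes tested were, among them Kcnd2, at 0.20 of the next lowest depot.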
